A study of Homo sapiens with 6 samples.

Results

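The genes described here encode secreted carrier and acute phase proteins of blood plasma, which hepatocytes make and release. They were taken as 37 listed symbols looked up by name in the deposited log2 FPKM matrix (fragments per kilobase of gene, scaled to library depth) and joined by Ensembl ID to the deposited count matrix. The matrix of 18404 genes held 28 of the 37 symbols on 29 gene records, because SERPINA3 stands on 2 records. The other 9 symbols (ITIH4, A1BG, HRG, SAA1, SAA2, CRP, LBP, PON1 and APCS) were found by ID in the count matrix of 60504 genes only, with 0 to 5 counts per library. SEPP1 is the deposited name of the gene now called SELENOP.

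The samples were HepG2 cells, an established human liver carcinoma line, cultured in DMEM. Of 6 RNA sequencing libraries, 3 came from cells given 10 µM oridonin, a plant diterpenoid, for 48 h and 3 from cells given 0.1% DMSO for 48 h. The labels do not say whether the oridonin wells also held DMSO, nor whether the 3 samples of a treatment came from separate cultures, so p-values measure only the spread between these samples. The study set out to explore how oridonin acts on metabolism. HepG2 is a tumour line and the libraries are bulk, so fewer cells that express a gene and less RNA of it per cell cannot be told apart.

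Most plasma proteins other than antibodies come from the liver. Carriers such as transferrin, transthyretin and haptoglobin bind metals, hormones or haemoglobin that would otherwise be toxic, insoluble or lost through the kidney. In inflammation, interleukin 6 and interleukin 1 raise the liver's output of positive acute phase proteins such as C-reactive protein, serum amyloid A and haptoglobin, while that of negative ones such as transferrin, transthyretin and fetuin falls.

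Total counts per library were 27674586 to 30739574 with oridonin and 22250202 to 29352396 with DMSO. Correlations of log2 CPM (counts scaled by library size) were 0.992 to 0.996 within a treatment and 0.978 to 0.986 between treatments. All 10 hepatocyte identity genes checked were measured, ALB among them at 4025 ± 305 CPM with oridonin and 6864 ± 341 CPM with DMSO (SD, n = 3 each). Summed CPM over 13 plasma cell genes, mostly immunoglobulin, were 27.7, 88.3 and 82.5 in oridonin libraries 1 to 3 and 0.360, 10.7 and 19.1 in DMSO libraries 1 to 3. Summed CPM over 10 gut epithelial genes were 32.8 to 43.7 with oridonin and 18.5 to 22.7 with DMSO. Of the tested genes of these lists, 2 of 9 plasma cell genes and 7 of 8 gut genes were called higher, against 20.6% of all genes tested. Summed CPM over 6 stromal genes were 36.7 to 37.7 with oridonin and 57.9 to 65.8 with DMSO, and over 4 endothelial genes 8.02 to 9.04 with oridonin and 5.40 to 7.29 with DMSO. Over 6 leukocyte genes they were 428 to 467 with oridonin and 668 to 691 with DMSO. PDGFRB made up most of the stromal sum and LYZ most of the leukocyte sum, and other genes of these lists differed from them. COL1A1 was called higher, with a log2 fold change of 1.14 ± 0.39 (SE, edgeR adjusted p = 0.0372), and COL3A1 had 7, 35 and 25 counts with oridonin and 1, 6 and 5 counts with DMSO. COL1A2 had 7, 31 and 33 counts with oridonin and 0, 7 and 19 counts with DMSO, and was not called. PTPRC had 1, 3 and 2 counts and CD3E 0, 2 and 3 counts with oridonin, and both had 0 in every DMSO library, while the B cell marker MS4A1 was at 0 in all 6 libraries. The 3 haemoglobin genes summed to 0.133 to 0.397 CPM with oridonin and 0.0899 to 0.140 CPM with DMSO, and 7 adult hepatocyte enzymes to 0.542 to 0.846 CPM with oridonin and 0.613 to 0.764 CPM with DMSO. The part of these other transcripts in the results below was not tested. Without oridonin libraries 2 and 3, a comparison chosen after the data were seen, the median log2 fold change of the listed records was -0.61, against -0.64 with all libraries. The spread then comes from the DMSO libraries alone, the lone oridonin library is assumed to vary like them, and it too held more plasma cell and gut transcripts than any DMSO library.

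After 48 h of oridonin, transcripts of most of these plasma proteins were lower in HepG2 cells. Of the 29 gene records, 27 had enough counts to be tested. Of these, 22 fell, 1 rose and 4 were not called by edgeR's quasi-likelihood test at a Benjamini-Hochberg adjusted p under 0.05 over all genes. The background was 21.3% of 15116 tested genes called lower and 20.6% called higher, 41.9% in all. Of all genes called, 49.2% were higher, against 65.5% with scaling to total counts alone, which moved the median of all genes by 0.08 on the log2 scale. The median log2 fold change over the 27 records was -0.64, against 0.01 over all genes tested, and single values ran from -1.50 for SERPINA11 to 0.13 for FN1. The 5 records that fell by at least 1 on the log2 scale were SERPINA11, SERPINA7, SERPINA3, CP and SERPINA4, where 1.60% of all tested genes did so. No listed gene rose by 1 or more, where 3.12% of all tested genes did. Oridonin and DMSO libraries did not overlap in 26 of the 27 records, against 51.6% of all genes tested. The exception was TTR.

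**Figure D1:**
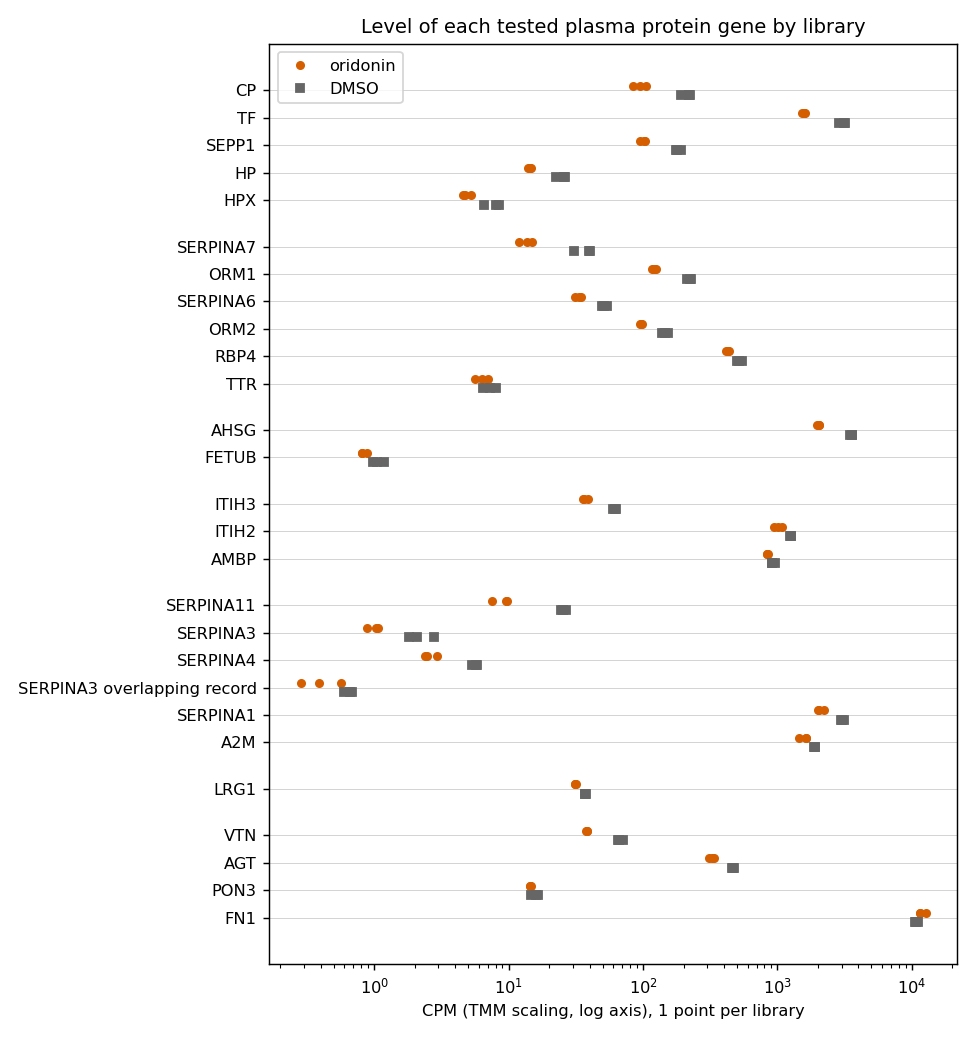
Level of each of the 27 tested gene records in CPM on a log axis, 1 point per library, with the 3 oridonin libraries as circles above the 3 DMSO libraries as squares and genes grouped by role. In 26 of the 27 records the circles and squares occupy separate ranges, and only FN1 has the oridonin libraries to the right.

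To show the sequence in front of genes that moved and genes that hardly moved, RefSeq promoters (GRCh38.p14, from 250 bases before to 50 bases after the transcript start) are given for the 2 genes with the lowest fold changes (SERPINA11 and SERPINA7), for AHSG and TF as highly expressed genes that fell, and for AMBP and FN1, whose changes were small. Capitals mark matches on either strand to 4 short motifs of liver and general factors. The HNF4 core was searched as CAAAGTCC and the C/EBP site as TTNNGCAA. The STAT site was searched as TTCNNNGAA, and the TATA box as TATAAA. Matches to different motifs overlap in 1 of the 22 promoters found, that of SAA4. All sequences run 5′ to 3′ along the gene's own strand.
SERPINA11 (chr14:94452751-94453050, minus strand): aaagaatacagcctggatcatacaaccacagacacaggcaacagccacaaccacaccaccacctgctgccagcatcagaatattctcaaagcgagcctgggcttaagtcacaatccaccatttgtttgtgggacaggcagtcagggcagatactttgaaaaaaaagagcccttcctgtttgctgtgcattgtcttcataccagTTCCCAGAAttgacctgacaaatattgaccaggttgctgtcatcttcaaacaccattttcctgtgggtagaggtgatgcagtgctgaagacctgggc
SERPINA7 (chrX:106038678-106038977, minus strand): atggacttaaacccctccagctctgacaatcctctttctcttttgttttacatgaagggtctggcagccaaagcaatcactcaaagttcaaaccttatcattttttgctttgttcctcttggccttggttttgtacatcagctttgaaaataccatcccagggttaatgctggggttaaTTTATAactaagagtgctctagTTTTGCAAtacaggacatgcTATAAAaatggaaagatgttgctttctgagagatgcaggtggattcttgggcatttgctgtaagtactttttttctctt
AHSG (chr3:186612810-186613109, plus strand): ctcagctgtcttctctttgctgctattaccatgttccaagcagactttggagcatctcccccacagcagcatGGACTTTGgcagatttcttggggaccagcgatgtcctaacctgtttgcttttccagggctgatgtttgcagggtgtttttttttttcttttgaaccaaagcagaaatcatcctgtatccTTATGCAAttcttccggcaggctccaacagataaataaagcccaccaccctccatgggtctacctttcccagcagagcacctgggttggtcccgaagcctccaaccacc
TF (chr3:133746143-133746442, plus strand): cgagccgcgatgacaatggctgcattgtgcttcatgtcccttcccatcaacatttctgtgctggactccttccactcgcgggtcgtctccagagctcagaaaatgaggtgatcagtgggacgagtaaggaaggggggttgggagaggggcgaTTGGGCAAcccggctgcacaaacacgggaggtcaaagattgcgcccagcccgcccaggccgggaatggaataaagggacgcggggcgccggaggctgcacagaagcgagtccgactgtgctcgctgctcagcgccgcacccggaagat
AMBP (chr9:114078251-114078550, minus strand): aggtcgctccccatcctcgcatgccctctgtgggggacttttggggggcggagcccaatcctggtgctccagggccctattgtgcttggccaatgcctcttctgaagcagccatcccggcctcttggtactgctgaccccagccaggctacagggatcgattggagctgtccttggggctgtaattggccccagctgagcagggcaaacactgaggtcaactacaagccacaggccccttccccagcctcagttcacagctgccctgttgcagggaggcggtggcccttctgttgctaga
FN1 (chr2:215436019-215436318, minus strand): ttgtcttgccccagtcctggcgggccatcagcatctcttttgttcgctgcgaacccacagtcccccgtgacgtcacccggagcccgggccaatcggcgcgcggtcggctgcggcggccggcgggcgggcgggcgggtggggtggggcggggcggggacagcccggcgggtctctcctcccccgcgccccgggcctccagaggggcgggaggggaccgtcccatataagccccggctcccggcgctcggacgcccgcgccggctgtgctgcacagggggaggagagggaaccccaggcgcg
The SERPINA7 promoter holds 1 C/EBP match and 2 TATA matches, and that of SERPINA11 a STAT match only. The AHSG promoter holds an HNF4 and a C/EBP match and the TF promoter a C/EBP match, while those of AMBP and FN1 hold none of the 4 motifs. Among the other promoters found, those of SERPINA3, SERPINA4, ITIH3 and SERPINA1 also hold none. Those genes were called lower, with log2 fold changes of -1.16, -1.11, -0.74 and -0.54. Promoters of LRG1 and RBP4, at -0.25 and -0.28, and of FETUB, which was not called, hold at least 1 motif. Whether the motifs go with the changes was not tested. Promoter entries matched 22 of the 28 symbols, and none was found for CP, HP, TTR, ORM2, ITIH2 and A2M in the promoter set used. At least 1 of the 4 motifs was found in 14 of the 22 (63.6%), against 26.3% of 35116 RefSeq promoters. Single motifs were found in 6 of 22 for C/EBP (10.5% of all promoters), 6 for STAT (7.66%), 6 for TATA (11.5%) and 2 for HNF4 (1.2%). Median GC content was 55.7% in the 22 promoters and 58.7% in all of them. For each gene the RefSeq start nearest the beginning of its gene record was used. A gene can have several starts, and whether these cells use the one shown was not tested, also where no motif was found. These matches describe letters in a window of this length and do not show that a factor binds.

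The metal, haem and selenium carriers were called lower in all 5 tested records, against 21.3% of all genes tested. Transferrin (TF, ENSG00000091513, hg38 chr3:133745956-133779006, plus strand), which carries iron to cells, had 1597, 1585 and 1513 CPM with oridonin, against 3162, 3113 and 2865 CPM with DMSO. The 2 treatments were far apart, and TF fell by 0.96 ± 0.05 on the log2 scale (SE, n = 3 per group, edgeR adjusted p = 2.27e-10). Ceruloplasmin (CP, hg38 chr3:149162410-149222055, minus strand), a copper-carrying ferroxidase, had 105, 94.7 and 83.7 CPM with oridonin, against 223, 219 and 192 CPM with DMSO. Library 3 was the lowest in each treatment, and the highest oridonin value was still below the lowest DMSO value. CP fell by 1.16 ± 0.08 on the log2 scale (SE, edgeR adjusted p = 2.17e-07). CP overlaps HPS3 on the opposite strand, whose mean CPM was 13.3% of that of CP.

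SEPP1, which supplies selenium to other tissues, had 103, 95.3 and 101 CPM with oridonin, against 177, 191 and 180.2 CPM with DMSO. It fell by 0.87 ± 0.05 on the log2 scale (SE, edgeR adjusted p = 9.88e-10). Haptoglobin (HP), which binds free haemoglobin, had 14.5, 14.7 and 13.8 CPM with oridonin, against 26.4, 25.9 and 22.6 CPM with DMSO. Of the 50-base words in its longest coding transcript, 30.6% also occur in HPR, a close copy, so its value is uncertain by itself. With counts of HP and HPR summed, the pair had 16.3, 16.4 and 15.3 CPM with oridonin and 30.4, 29.01 and 25.0 CPM with DMSO, and the log2 fold change was -0.81 ± 0.08 (SE) in place of -0.79 ± 0.08 for HP alone. HP also overlaps TXNL4B on the opposite strand, at 55.9% of its mean CPM. Hemopexin (HPX), which binds free haem, averaged 4.87 ± 0.362 CPM with oridonin and 7.69 ± 0.987 CPM with DMSO (SD, n = 3 each), a log2 fold change of -0.66 ± 0.12 (SE, edgeR adjusted p = 0.000321).

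Among 6 carriers of hormones, retinol and drugs, 5 were called lower, against 21.3% of all genes tested, and 1 was not called. SERPINA7 (hg38 chrX:106032442-106038738, minus strand), the thyroxine-binding globulin, had 13.6, 14.9 and 12.02 CPM with oridonin, against 40.0, 39.8 and 30.8 CPM with DMSO. DMSO library 3 lay below the other DMSO libraries but well above the highest oridonin library. SERPINA7 fell by 1.44 ± 0.11 on the log2 scale (SE, edgeR adjusted p = 2.25e-07). SERPINA6, the corticosteroid-binding globulin, averaged 33.1 ± 1.54 CPM with oridonin and 51.5 ± 2.32 CPM with DMSO (SD, n = 3 each), a log2 fold change of -0.64 ± 0.06 (SE). Transthyretin (TTR), which carries thyroxine and the retinol-binding protein, had 5.65, 6.36 and 7.05 CPM with oridonin, against 6.47, 7.24 and 8.11 CPM with DMSO. These ranges overlapped, and its log2 fold change of -0.20 ± 0.12 (SE) was not called (edgeR adjusted p = 0.183). It was -0.12 without oridonin library 1 and likewise -0.12 without DMSO library 3. Its partner RBP4, the plasma carrier of retinol, was more abundant and averaged 429 ± 11.3 CPM with oridonin and 520.4 ± 26.4 CPM with DMSO (SD, n = 3 each). RBP4 fell by 0.28 ± 0.05 on the log2 scale (SE, edgeR adjusted p = 0.000211).

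ORM1 and ORM2 encode near-identical orosomucoids, acute phase lipocalins that bind many drugs. ORM1 (hg38 chr9:114323056-114326475, plus strand) had 119.8, 125 and 116 CPM with oridonin, against 228, 213 and 224 CPM with DMSO. ORM2 (hg38 chr9:114329869-114333252, plus strand) had 96.5, 98.1 and 94.9 CPM with oridonin, against 153, 146 and 139 CPM with DMSO. Both were lower in every oridonin library than in any DMSO library, with log2 fold changes of -0.88 ± 0.05 and -0.60 ± 0.05 (SE). Of the 50-base words of their coding transcripts, 47.4% of those of ORM1 occur in ORM2 and 50.2% of those of ORM2 in ORM1, so how reads were divided between them is uncertain. The summed pair had 216, 223 and 210.5 CPM with oridonin and 381, 359 and 363 CPM with DMSO, a log2 fold change of -0.76 ± 0.05 (SE, edgeR adjusted p = 1.89e-09). The log2 ratio of ORM1 to ORM2 counts within a library does not depend on library scaling. It was 0.31 ± 0.03 with oridonin and 0.60 ± 0.07 with DMSO (SD, n = 3 each), with no overlap (two-sided exact permutation p = 0.1, the smallest that 3 against 3 libraries allow).

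The cystatin-domain proteins were represented by a very abundant and a scarce gene. AHSG (ENSG00000145192, hg38 chr3:186612923-186621318, plus strand), fetuin-A, an inhibitor of mineral deposition, had the highest level of all listed genes per gene length, with a mean of 857 ± 12.3 FPKM with oridonin and 1496 ± 42.9 FPKM with DMSO (SD, n = 3 each). In CPM it had 2031, 2026 and 1965 with oridonin, against 3464, 3585 and 3587 with DMSO. It fell by 0.82 ± 0.04 on the log2 scale (SE, edgeR adjusted p = 3.22e-10). Its neighbour FETUB, fetuin-B, averaged 0.838 ± 0.0419 CPM with oridonin and 1.07 ± 0.101 CPM with DMSO (SD, n = 3 each), and its log2 fold change of -0.35 ± 0.24 (SE) was not called (edgeR adjusted p = 0.264). For HRG, the histidine-rich glycoprotein, no library held more than 2 counts, too few for a test.

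The inter-alpha-inhibitor family joins the light chain bikunin, encoded with alpha-1-microglobulin by AMBP, to heavy chains encoded by ITIH genes, and the complex stabilises hyaluronan in extracellular matrix. All 3 tested genes of the family were called lower, by unequal amounts, against 21.3% of all genes tested. ITIH3 averaged 36.9 ± 1.61 CPM with oridonin and 61.7 ± 1.47 CPM with DMSO (SD, n = 3 each), a log2 fold change of -0.74 ± 0.06 (SE, edgeR adjusted p = 2.58e-08). ITIH2, the abundant heavy chain of these cells, had 1001, 1072 and 948 CPM with oridonin, against 1253, 1261 and 1231 CPM with DMSO, a log2 fold change of -0.31 ± 0.05 (SE). AMBP (hg38 chr9:114060127-114078472, minus strand) had 849.9, 839.5 and 837 CPM with oridonin, against 903, 906 and 959.6 CPM with DMSO. Its treatments did not overlap, but its log2 fold change of -0.13 ± 0.05 (SE, edgeR adjusted p = 0.0262) lost its call in 10 of 16 other settings, among them total-count scaling, at -0.05. The log2 ratio of ITIH3 to AMBP counts, free of library scaling, was -4.51 ± 0.05 with oridonin and -3.90 ± 0.02 with DMSO (SD, n = 3 each; two-sided exact permutation p = 0.1, the smallest possible). Such ratios did not separate the treatments in every pair compared. The treatments overlapped for AGT to SERPINA1 (exact permutation p = 0.8) and for RBP4 to TTR and HP to HPR (exact permutation p = 0.5 each). They did not overlap for ITIH2 to AMBP, SERPINA7 to TTR and FETUB to AHSG (exact permutation p = 0.1 each). ITIH1 had 8 to 9 counts with oridonin and 6 to 14 with DMSO and was not tested, and ITIH4 had at most 1 count per library.

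The protease inhibitors were called lower in 5 of 6 tested records, against 21.3% of all genes tested. In 3 of them the fall was at least 1 on the log2 scale, against 1.60% of all genes tested. SERPINA1 (ENSG00000197249, hg38 chr14:94376747-94390693, minus strand), alpha-1-antitrypsin, the main plasma inhibitor of neutrophil elastase, had 1987, 2231 and 2041 CPM with oridonin, against 3032, 3122 and 2957 CPM with DMSO. The oridonin libraries all lay below the DMSO libraries, and SERPINA1 fell by 0.54 ± 0.05 on the log2 scale (SE, edgeR adjusted p = 1.97e-07). SERPINA11 (hg38 chr14:94442464-94452790, minus strand), a liver serpin whose function is little known, had 9.64, 9.74 and 7.52 CPM with oridonin, against 25.4, 26.6 and 24.5 CPM with DMSO. It was at 35.3% of its DMSO level, the lowest of all listed genes, with a log2 fold change of -1.50 ± 0.09 (SE, edgeR adjusted p = 1.52e-09).

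SERPINA4, kallistatin, a tissue kallikrein inhibitor, had 2.92, 2.40 and 2.48 CPM with oridonin, against 5.33, 5.76 and 5.77 CPM with DMSO. It fell by 1.11 ± 0.13 on the log2 scale (SE, edgeR adjusted p = 4.22e-06), a value that is uncertain because SERPINA5, with a much higher count, overlaps it on the same strand. SERPINA3, alpha-1-antichymotrypsin, an inhibitor of cathepsin G, had 1.07, 1.04 and 0.886 CPM with oridonin, against 1.82, 2.77 and 2.08 CPM with DMSO. Each oridonin library was below each DMSO library, with a log2 fold change of -1.16 ± 0.22 (SE, edgeR adjusted p = 0.000369). With limma on log2(FPKM + 1), a scale that understates changes of low genes, the values were -0.26 for SERPINA3 and -0.68 for SERPINA4, both still called. The other SERPINA3 record (ENSG00000273259) overlaps this one and SERPINA5 on the same strand. Its 0.413 ± 0.142 CPM with oridonin and 0.646 ± 0.0443 CPM with DMSO (SD, n = 3 each) were not called, and reads could have been assigned to either record. A2M, alpha-2-macroglobulin, which traps proteases of many classes, averaged 1572 ± 102 CPM with oridonin and 1894 ± 15.1 CPM with DMSO (SD, n = 3 each), a log2 fold change of -0.27 ± 0.05 (SE, edgeR adjusted p = 0.000351).

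**Figure D2:**
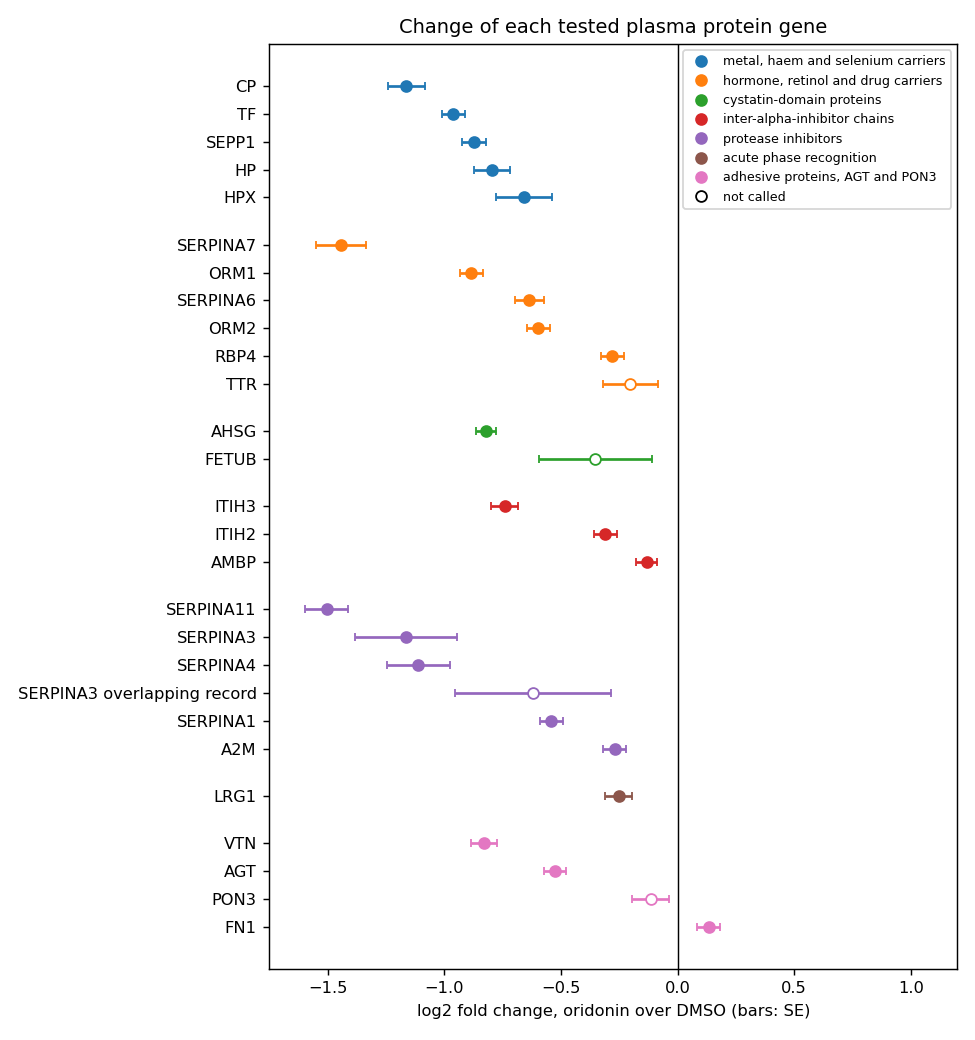
Log2 fold change of oridonin over DMSO with its SE for the 27 tested gene records, grouped and coloured by role, with open circles for records that were not called. SERPINA11 at -1.50 and SERPINA7 at -1.44 lie farthest to the left, and FN1 at 0.13 is the one point to the right of 0.

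Several of these genes lie in groups on the chromosomes. From SERPINA6 to SERPINA3 on chromosome 14 the annotation columns list 8 protein-coding records, 6 of them of 5 listed genes. Of the 8 records, 7 were called lower, against 21.3% of all genes tested. The listed genes ran from -0.54 for SERPINA1 to -1.50 for SERPINA11. The others were SERPINA5, the protein C inhibitor, at -0.93 ± 0.05 and SERPINA12 at -1.40 ± 0.29 on the log2 scale (SE). On chromosome 9, the left end of AMBP lies 263 kb from that of ORM1, and between them KIF12 had a log2 fold change of -0.61 and COL27A1 one of -0.51, against -0.13 for AMBP and -0.88 for ORM1. The log2 ratio of ORM1 to AMBP counts was -2.81 ± 0.05 with oridonin and -2.06 ± 0.06 with DMSO (SD, n = 3 each; two-sided exact permutation p = 0.1, the smallest possible).

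**Figure D3:**
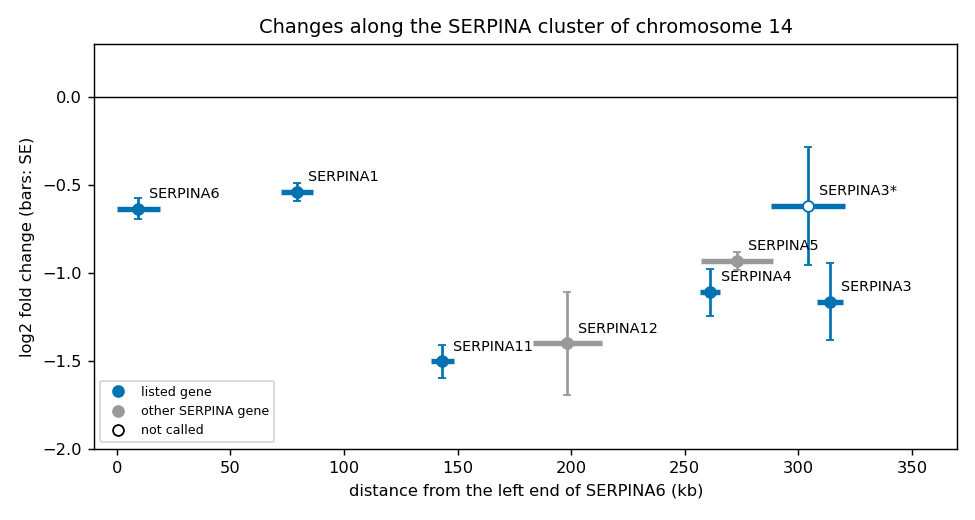
Log2 fold change with its SE for protein-coding records along the SERPINA cluster, against distance in kb from the left end of SERPINA6, with bars as long as the gene, blue for listed genes, grey for other genes and an open circle where the record was not called. The asterisk marks the overlapping SERPINA3 record (ENSG00000273259), and SERPINA11 at -1.50 is the lowest point.

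The recognition and amyloid proteins of the acute phase response were nearly silent in these cells with either treatment. C-reactive protein (CRP) and serum amyloid P (APCS), pentraxins that bind microbes and cell debris, had 0 counts in all 6 libraries, which allows up to 0.0976 to 0.135 CPM per library. The serum amyloid A genes SAA1 and SAA2 are near-identical. SAA1 had 2, 3 and 4 counts with oridonin, against 0, 2 and 1 with DMSO, and SAA2 had 0, 2 and 1 counts with oridonin, against 0, 0 and 0 with DMSO. Their sums of 2, 5 and 5 counts with oridonin and 0, 2 and 1 with DMSO were too few to test. LBP, the lipopolysaccharide-binding protein, had 4 counts in all with oridonin and 6 with DMSO. SAA4, which encodes the amyloid A protein made without inflammation, had 9, 8 and 5 counts with oridonin, against 9, 5 and 13 counts with DMSO, and was not tested. LRG1, a leucine-rich glycoprotein of the acute phase, was the exception and averaged 31.4 ± 0.447 CPM with oridonin and 37.4 ± 0.366 CPM with DMSO (SD, n = 3 each). It fell by 0.25 ± 0.06 on the log2 scale (SE, edgeR adjusted p = 0.00218).

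FN1 (ENSG00000115414, hg38 chr2:215360440-215436172, minus strand), which encodes plasma and cellular fibronectin, adhesive proteins of clots and matrix, was the only listed gene called higher. It had 12775, 11402 and 11428 CPM with oridonin, against 11190, 10568 and 10703 CPM with DMSO. The 3 oridonin libraries were above the 3 DMSO libraries by a narrow margin, with a log2 fold change of 0.13 ± 0.05 (SE, edgeR adjusted p = 0.0386). The call rests on oridonin library 1, without which the log2 fold change was 0.08 with an adjusted p of 0.282, and it was also lost without DMSO library 2 or 3 and in DESeq2 and both limma fits. VTN, vitronectin, the other adhesive protein, averaged 38.0 ± 0.235 CPM with oridonin and 67.7 ± 2.80 CPM with DMSO (SD, n = 3 each) and fell by 0.83 ± 0.06 on the log2 scale (SE, edgeR adjusted p = 4.7e-09). Of the 50-base words of VTN, 13.3% also occur in a transcript of AC002094.3. The log2 ratio of FN1 to VTN counts was 8.28 ± 0.09 with oridonin and 7.32 ± 0.02 with DMSO (SD, n = 3 each). This ratio had to separate the treatments, because FN1 was higher and VTN lower in every oridonin library than in any DMSO library. No p-value is therefore given for it.

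AGT, angiotensinogen, the precursor of the angiotensin peptides, averaged 324 ± 15.8 CPM with oridonin and 466 ± 6.85 CPM with DMSO (SD, n = 3 each), a log2 fold change of -0.52 ± 0.05 (SE, edgeR adjusted p = 1.95e-07). PON3, a lactonase carried on high-density lipoprotein, had 14.5, 14.6 and 14.4 CPM with oridonin, against 16.6, 15.9 and 14.7 CPM with DMSO. Its lowest DMSO library lay just above the oridonin libraries, and its log2 fold change of -0.12 ± 0.08 (SE) was not called (edgeR adjusted p = 0.248). PON1, the main serum paraoxonase, had 0 to 5 counts per library and A1BG, a plasma glycoprotein of the immunoglobulin superfamily, 0 to 3.

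Most genes were called lower both among those known to rise and among those known to fall in inflammation. Many listed genes were put in neither class, among them FN1, SERPINA7, SERPINA11, SEPP1, VTN and AGT, and are left out of this comparison. Among 10 tested records of genes that rise in inflammation, SERPINA3 on 2 of them, 9 were called lower and none higher. Of all genes tested, 21.3% were called lower and 20.6% higher. The median log2 fold change of the 10 records was -0.70, and single values ran from -1.16 to -0.25. Among 4 tested genes that fall in inflammation (TF, TTR, RBP4 and AHSG), 3 were called lower, with a median of -0.55 and single values from -0.96 to -0.20. Of 10 other hepatocyte genes, 6 were called lower and 4 higher, beside the same 21.3% and 20.6% of all genes. All 3 fibrinogen chains, also positive acute phase proteins, were among the 4. FGA rose by 0.81 ± 0.09, FGB by 1.23 ± 0.10 and FGG by 0.90 ± 0.09 on the log2 scale (SE, edgeR adjusted p = 6.23e-06, 5.18e-08 and 1.91e-06). The difference between the classes was not tested.

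Levels per gene length, in FPKM, spanned over 4 orders of magnitude. With DMSO, 11 records had at least 100 FPKM, 8 had 10 to under 100, 5 had 1 to under 10 and 5 had less than 1. AHSG was followed by FN1, at 687 ± 40.6 FPKM with oridonin and 619 ± 15.1 FPKM with DMSO, and by SERPINA1, at 428 ± 27.5 FPKM with oridonin and 615 ± 13.8 FPKM with DMSO (SD, n = 3 each). With DMSO, FN1 and SERPINA1 did not differ beyond their spread. TTR and HPX, abundant products of adult liver, had only 3.32 ± 0.403 and 2.10 ± 0.250 FPKM with DMSO (SD, n = 3 each). Median log2 fold changes were -0.52 in the records with at least 100 FPKM, -0.85 in those with 10 to under 100, -0.66 with 1 to under 10 and -0.62 in the 3 tested records under 1 FPKM. From the highest to the lowest of these levels, 10 of 11, 8 of 8, 3 of 5 and 1 of 3 tested records were called lower, against 21.3% of all genes tested. The 1 under 1 FPKM was a SERPINA3 record, which overlaps the other one.

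**Figure D4:**
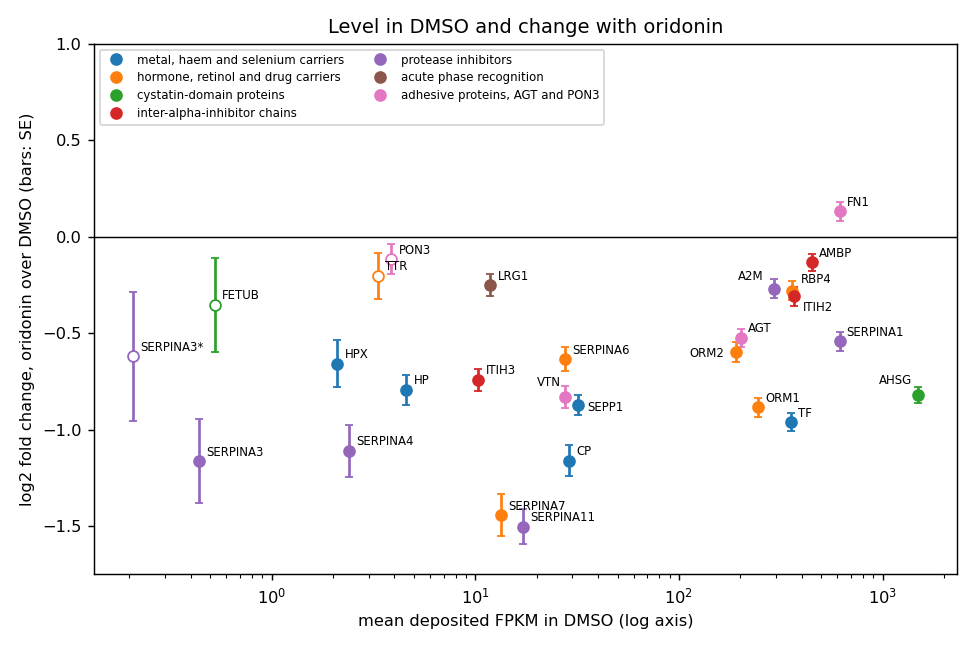
Mean deposited FPKM with DMSO on a log axis against the log2 fold change of oridonin over DMSO with its SE, for the 27 tested records coloured by role, with open circles for records that were not called and an asterisk for the overlapping SERPINA3 record. AHSG has the highest level and fell by 0.82, while the 3 highest records after it run from -0.54 to 0.13.

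With oridonin, FN1 took more counts than the other 28 records together. All 29 records took 2.29% ± 0.107 of a library's counts with oridonin and 2.59% ± 0.0703 with DMSO (SD, n = 3 each). Without FN1 the share was 1.07% ± 0.0376 with oridonin and 1.53% ± 0.0344 with DMSO (SD, n = 3 each), a ratio of 0.699. FN1 made up 53.1% ± 1.77 of the counts of the records with oridonin and 40.7% ± 0.836 with DMSO (SD, n = 3 each). The treatments did not overlap in any of these shares. No p-value is given, because the shares are built mostly from genes already seen not to overlap.

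**Figure D5:**
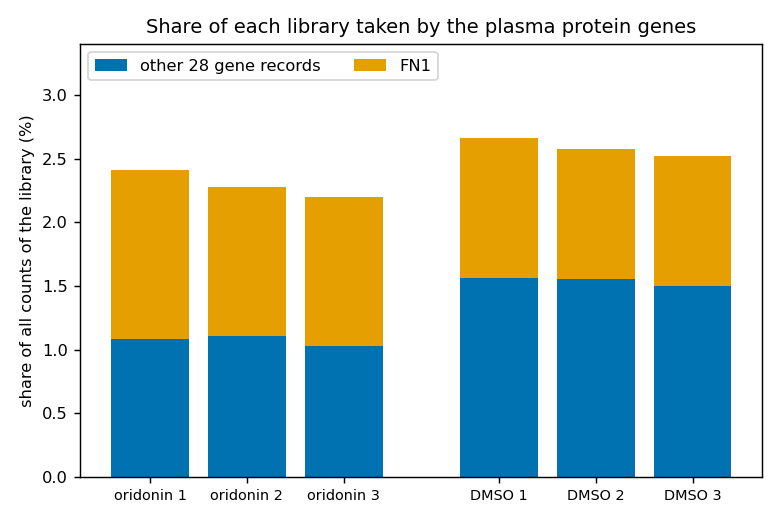
Share of all counts of each library, in percent, taken by FN1 and by the other 28 gene records, with the 3 oridonin libraries on the left and the 3 DMSO libraries on the right. The lower bars, without FN1, average 1.07% with oridonin and 1.53% with DMSO.

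Genes of the acute phase signalling pathway moved in both directions. Of 16 tested, 7 were called lower and 5 higher, against 21.3% lower and 20.6% higher of all genes tested. The median of the signalling genes was -0.09 on the log2 scale. The interleukin 1 co-receptor IL1RAP fell by 0.86 ± 0.06, the NF-kappa-B inhibitor NFKBIA by 0.62 ± 0.05 and the NF-kappa-B subunit NFKB1 by 0.35 ± 0.06 on the log2 scale (SE), while the interleukin 6 receptor IL6R rose by 0.56 ± 0.05. JAK2, TYK2, STAT3 and SOCS3 were also called higher, by 0.54 ± 0.11, 0.20 ± 0.06, 0.18 ± 0.04 and 0.85 ± 0.23 (SE). IL6ST was called lower, by 0.15 ± 0.05 (SE). Of 15 liver transcription factors tested, 10 were called lower and none higher, against the same shares of all genes. The median of these factors was -0.26. The bile acid receptor NR1H4, FOXA1 and ONECUT1 fell by 1.18 ± 0.07, 0.61 ± 0.06 and 1.02 ± 0.13 on the log2 scale (SE). HNF4A, a main activator of hepatocyte genes, averaged 254 CPM with oridonin and 262 CPM with DMSO and was not called (edgeR adjusted p = 0.502). Of the C/EBP factors in these 2 lists, CEBPA fell by 0.57 ± 0.07 and CEBPB by 0.44 ± 0.07 on the log2 scale (SE, edgeR adjusted p = 1.27e-05 and 0.000285). CEBPD, at -0.16 ± 0.10 (SE), was not called (edgeR adjusted p = 0.212).

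Of 15 tested receptors and binding partners of these plasma proteins, 7 were called lower and 4 higher. Of all genes tested, 21.3% were called lower and 20.6% higher. The median of the receptors and partners was -0.19. The iron sensor TFR2, the asialoglycoprotein receptor ASGR1 and the lipoprotein receptor SCARB1 fell by 1.04 ± 0.09, 0.51 ± 0.05 and 0.40 ± 0.05 on the log2 scale (SE). ITGB1, a chain of the fibronectin receptor, rose by 0.36 ± 0.05. TFRC, the transferrin receptor of most cells, averaged 611 CPM with oridonin and 616 CPM with DMSO, with a log2 fold change of -0.01 ± 0.06 (SE) that was not called (edgeR adjusted p = 0.895).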

How the data were processed

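RNA from 6 HepG2 libraries, 3 per treatment, was analysed from 2 deposited tables, with columns tied to samples by the labels. The first holds raw counts per gene, as deposited by the authors. The second holds log2 FPKM, as deposited by the authors, for exactly the 18404 genes with at least 1 count in every library. FPKM here is 2 to the deposited value. The submitters' processing notes name hg38 as build and DESeq2 1.10.1 as tool. Which aligner, counter and strandedness were used is not given in the sources used here, so overlapping or near-identical genes are uncertain.

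Counts were tested with edgeR 4.0.16 in R 4.3.3 (filterByExpr, TMM scaling, robust glmQLFit and glmQLFTest, treatment as the only term), with p-values adjusted by Benjamini-Hochberg over 15116 genes and called under 0.05. The SE is the size of the log2 fold change over the square root of F. CPM use TMM factors; summed marker CPM use total counts. Tested genes took 99.9% of each library. DESeq2 1.42.0 and limma 3.58.1 served as alternatives, with a pseudocount of 1 for log2(FPKM + 1). The limit of 3 counts for a gene at 0 covers counting error only. The fit was tested on simulated data.

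The listed genes, context lists and tests were chosen with earlier results of these data known. Values per library are given for genes called with a log2 change of 1 or more in either direction, called higher, among the 5 highest in FPKM, among the 5 lowest in p, not called at 10 CPM or more, or with a near-identical copy. Values per library of TTR, SAA4, COL1A2, COL3A1, PTPRC and CD3E were added after they were seen. So were the log2 fold changes of FGA, FGG, COL1A1, JAK2, TYK2, STAT3, SOCS3, IL6ST, CEBPA, CEBPB and CEBPD. Shared sequence was counted as exact 50-base words of the longest coding transcript found in transcripts of other genes (GENCODE 29).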

Additional observations from a re-analysis of the deposited data

How the results depend on the processing

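Under 16 other settings no listed gene changed direction, and 25 of the 27 tested records stayed on their side of the threshold wherever they were tested. AMBP lost its call in 10 settings and FN1 in 6. The count of listed records called higher was 0 in place of 1 with DESeq2, with limma on log2 FPKM and with limma on log2(FPKM + 1), and 0 to 1 when 1 library was left out at a time. The count called lower was 19 to 22 over all settings, with 19 where the filter of 10 CPM left 21 records. The median log2 fold change was -0.56 with total counts only and -0.52 with log2(FPKM + 1), in place of -0.64. HPX was -0.40 on that last scale, in place of -0.66. Without oridonin libraries 2 and 3, chosen after the data were seen and 1 of the 16 settings, the DMSO libraries alone give the spread. There 1986 of all genes were called lower and 1593 higher, and 15 context genes lower in place of 24. With a replicate block, 22 listed records were called lower and 1 higher, and of all 15116 genes tested 3839 lower and 3850 higher. Deviations of libraries with the same number correlated at 0.194, 0.0651 and 0.173, each the highest for its library, a hint from the data and not from the design. Genes under 10 CPM, 6 of the tested records, have the fewest counts, and the 9 symbols with 0 to 5 counts allow no statement on change.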
